A study of Mus musculus with 33 samples.

Results

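The retinoid receptors and their corepressors were followed as 8 genes of the 17120 in the count table, chosen by gene symbol: the retinoic acid receptor (RAR) genes Rara, Rarb and Rarg, the retinoid X receptor (RXR) genes Rxra, Rxrb and Rxrg, and the corepressor genes Nrip1 and Ncor1. All 8 were found, and Rarb had at least 1 count in 32 of the 33 libraries while the other members were counted in all 33. RNA was sequenced from mouse embryonic stem cells (mESCs) that carry the tendon reporter ScxGFP. The cells were first aggregated as embryoid bodies with the BMP inhibitor LDN-193189, and the Wnt agonist CHIR was then added beside it until differentiation day 6 (D6), which the labels call paraxial mesoderm (PM). They were then plated as a monolayer with TGFβ1, the hedgehog agonist SAG and FGF2, together with either CD1530, an agonist selective for RARγ, or AGN 193109 (AGN), an inverse agonist of all RARs. Libraries were made from PM and from each condition at 5 times, the earliest 0.25 days after PM (D6.25) and the others at D6.75 and D7.5, then D8.5, and finally D10, with 3 replicates in each of the 11 groups.

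Several limits of the groups bear on every comparison. No induced group lacked both compounds, so a gene raised by CD1530 and a gene lowered by AGN cannot be told apart, and the compounds were used at different concentrations. By the labels the PM samples were embryoid bodies and all later samples a monolayer, grown with other added factors, so time, plating and added factors cannot be told apart in the comparisons with PM. The study used several reporter lines, and the labels do not give the line of a library. Its methods also describe AGN during mesoderm induction, and the labels do not say whether these PM libraries had it. In bulk RNA, fewer cells of a type and less RNA per cell cannot be told apart.

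The RARs are nuclear receptors for retinoic acid. Each binds DNA as a pair with an RXR, and the RXRs also pair with receptors for vitamin D, thyroid hormone and oxysterols. Without an agonist the pair holds a corepressor complex built on NCOR1, which carries histone deacetylases; an agonist exchanges it for coactivators, and an inverse agonist strengthens the hold of the corepressors. NRIP1 (RIP140) differs from NCOR1 in that it is recruited by receptors bound to an agonist and dampens their activity. Retinoic acid is one of the signals that patterns the paraxial mesoderm, and RARγ is the receptor typical of skeletal progenitors and cartilage.

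Many RAR targets, among them the P2 promoter of Rarb itself, hold a response element of the DR5 kind: a pair of half-sites in the same direction, 5 bases apart. The RefSeq promoter windows of the members (GRCm38.p6, 250 bases before to 50 after each start, 17 windows over the 8 genes) were searched on both strands for a pair of the following half-sites: the consensus AGGTCA, its common variant AGTTCA, and the forms of these that open with a guanine, which are written GGGTCA for the first and GGTTCA for the second. The pair was spaced by 1, 2 or 5 bases (DR1, DR2 and DR5). The only match was a DR5 in the Rarb window at chr14:16575427-16575726, minus strand. Its sequence is shown because Rarb is the member that differed most between the conditions, and capitals mark the half-sites.
Rarb promoter: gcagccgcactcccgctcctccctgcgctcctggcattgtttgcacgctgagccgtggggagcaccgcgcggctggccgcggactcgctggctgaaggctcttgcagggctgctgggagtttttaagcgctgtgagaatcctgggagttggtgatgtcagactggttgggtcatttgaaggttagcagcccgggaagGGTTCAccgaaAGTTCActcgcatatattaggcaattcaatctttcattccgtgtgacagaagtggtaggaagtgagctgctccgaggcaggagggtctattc
The site spans chr14:16575513-16575529, from -53 to -37 relative to the start. Such a pair was present in 32 of the 32851 windows of all genes (0.0974%), DR1 in 0.222% and DR2 in 0.268%. These matches describe letters in a window. They do not show binding, and response elements outside the windows were not searched.

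Library totals ranged from 17116084 to 22775275 counts, apart from AGN D8.5 replicate 1 with 38120841. Levels are given as CPM, that is, read counts scaled to a common library total, after TMM scaling, and comparisons between genes as CPM per kb of exon. Each library was compared along gene length with the mean of the other libraries of its group. In the other 10 groups the log2 CPM changed by -0.0397 to 0.0326 per doubling of exon length. One library stood apart: in CD1530 D6.75 replicate 1 the log2 CPM fell by 0.130 per doubling. Member results whose call or sign this library decides are given with and without it. Of the defining mesoderm markers in the PM libraries, Tbx6 was at 8.97 to 10.4 CPM and Msgn1 at 2.69 to 3.82 CPM, while the 5 pluripotency markers summed to 2613 to 2706 CPM, with Pou5f1 at 693 to 709 CPM. At D10 the pluripotency sum was 188 to 196 CPM in CD1530 and 280 to 291 CPM in AGN. Pou5f1 alone set this order (25.5 to 28.4 CPM in CD1530, 147 to 153 CPM in AGN): Nanog (45.3 to 47.5 CPM, 33.9 to 37.1 CPM), Esrrb (37.0 to 38.8 CPM, 29.3 to 30.3 CPM) and Dppa5a (71.8 to 78.8 CPM, 59.4 to 69.3 CPM) lay lower in AGN, and Zfp42 overlapped. The 5 tendon markers summed to 1138 to 1492 CPM in PM, 13016 to 13625 CPM in CD1530 at D10 and 13976 to 15145 CPM in AGN at D10. Most of the D10 sum was Col1a1 (9521 to 10141 CPM in CD1530, 10926 to 11898 CPM in AGN). Scx (838 to 869 CPM, 1194 to 1250 CPM) and Tnmd (4.50 to 5.68 CPM, 9.56 to 10.9 CPM) also lay higher in AGN. Tnc lay lower in AGN (2578 to 2655 CPM, 1775 to 2008 CPM), and Mkx overlapped. At D10 the 5 cartilage markers summed to 235 to 241 CPM in CD1530 and 3077 to 3213 CPM in AGN, and the 6 neural markers to 142 to 155 CPM in CD1530 and 65.9 to 66.7 CPM in AGN, with Neurog2 listed at 0 in AGN. These marker levels differed with time and condition, and their part in the members' differences was not tested. The summed endothelial (147 to 161 CPM in CD1530, 140 to 149 CPM in AGN) and endoderm markers (140 to 144 CPM, 141 to 145 CPM) overlapped between the conditions at D10, while single markers lay apart in both directions. Foxa1 was at 78.9 to 81.2 CPM in CD1530 and 14.6 to 17.8 CPM in AGN, and Kdr at 43.2 to 46.4 CPM and 19.9 to 22.5 CPM. Epcam was at 42.0 to 44.0 CPM in CD1530 and 90.6 to 92.8 CPM in AGN, and Foxa2 at 3.99 to 4.72 CPM and 13.3 to 15.5 CPM. The 4 muscle markers in the table summed to 2.47 to 3.23 CPM in CD1530 and 4.70 to 5.41 CPM in AGN at D10. The 5 paraxial mesoderm markers summed to 169 to 178 CPM in CD1530 and 186 to 188 CPM in AGN at D10. Foxc2 alone set this order (79.8 to 84.4 CPM in CD1530, 110 to 112 CPM in AGN). Meox1 (71.5 to 75.3 CPM, 63.9 to 68.1 CPM) and Tcf15 lay lower in AGN without overlap, and Tbx6 and Msgn1 overlapped.

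**Figure D1:**
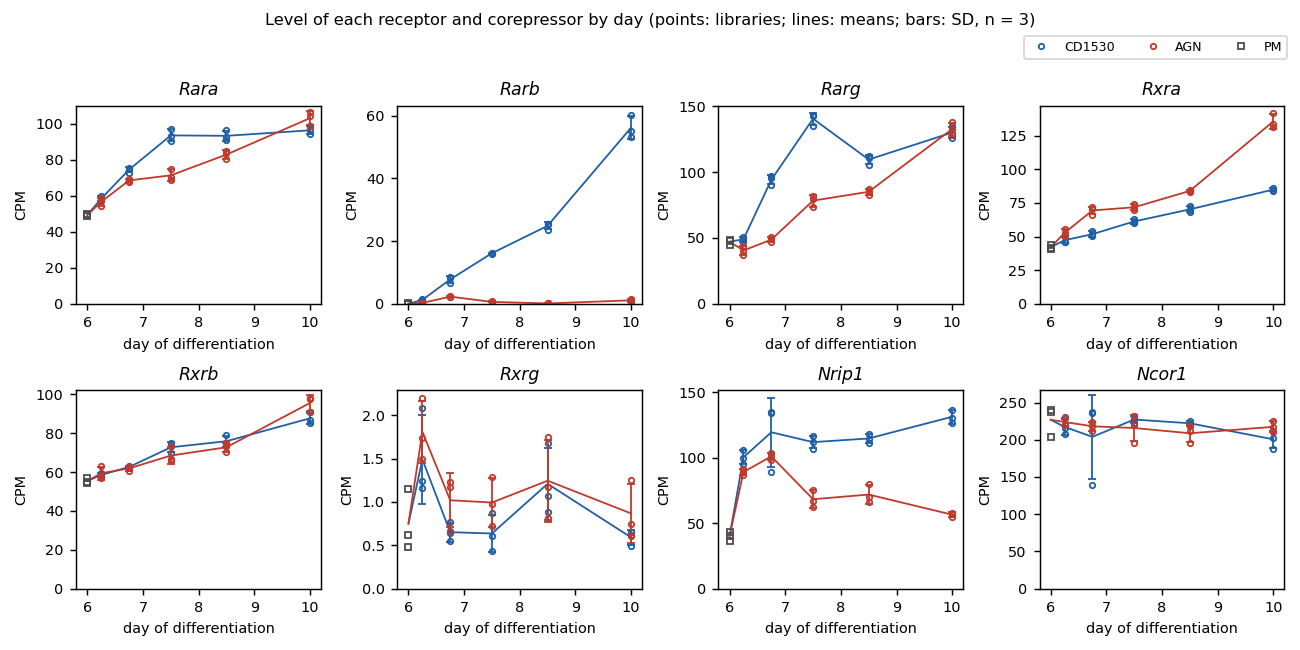
Level of each member in CPM (y axis, each panel with its own scale from 0) against day of differentiation (x axis); points are libraries, lines join group means from PM, and bars are SD (n = 3). The group mean of Rarb climbs to 56.2 CPM in CD1530 and stays at or under 2.29 CPM in AGN, Rxra ends higher in AGN, Nrip1 ends higher in CD1530, and the 1 low CD1530 library at D6.75 in the Nrip1 and Ncor1 panels is replicate 1.

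Taking the conditions against each other, 5 of the 8 members differed at D7.5, the same number at D8.5, and 4 at D10 (edgeR quasi-likelihood test, adjusted p under 0.05 over all genes). Rarb was the only member called higher in CD1530 at every time, Rxra was lower in CD1530 from D6.75, and Nrip1 was higher in CD1530 from D7.5. The number of members called was 2 at D6.25, where 1.92% of all genes were called, 4 at D6.75 (18.0% of all genes), 5 at D7.5 (26.9%), 5 at D8.5 (40.0%) and 4 at D10 (46.6%). At D10 the called members were 2 higher and 2 lower in CD1530, beside 22.7% and 24.0% of all genes. With nearly 1 in 2 genes called at D10 the count of members there is no result about them. The median log2 fold change over all genes lay between -0.02 and 0.01 at the 5 times.

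Rarb, the receptor gene on mouse chromosome 14 (GRCm38, chr14:16430839-16819156, minus strand), went from near absence in PM to 56.2 ± 3.57 CPM (SD, n = 3) in CD1530 at D10 and to 1.12 ± 0.488 CPM in AGN. The PM libraries held 3, 1 and 0 counts (0.144, 0.0472 and 0 CPM), and a count of 0 in PM replicate 3 allows up to 0.162 CPM. In CD1530 the CPM values were 1.39, 1.20 and 1.19 at D6.25. They were 6.53, 8.68 and 8.19 at D6.75. Every step of the CD1530 series was thus higher than the one before it with no overlap, as were the 3 later times. The values were 16.3, 15.9 and 16.2 CPM at D7.5, 23.6, 25.5 and 25.6 CPM at D8.5, and 55.1, 53.3 and 60.2 CPM at D10.

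The AGN series did not keep to one direction. Rarb was at 0.412, 0.195 and 0.289 CPM at D6.25, 2.25, 2.28 and 2.35 CPM at D6.75 and was at 0.606, 0.790 and 0.494 CPM at D7.5. At D8.5 it was at 0.162, 0.0510 and 0.159 CPM, which overlapped PM. At D10 it was at 0.563, 1.45 and 1.37 CPM. The D6.75 libraries of AGN were therefore higher than every other AGN library, and higher than the 3 CD1530 libraries at D6.25.

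The difference in Rarb between the conditions exceeded the spread between replicates at all 5 times. The log2 fold change was 2.04 ± 0.33 (SE) at D6.25 (edgeR adjusted p = 0.000111), 1.77 ± 0.15 at D6.75 (edgeR adjusted p = 1.37e-12), 4.66 ± 0.17 at D7.5 (edgeR adjusted p = 3.23e-24), 7.49 ± 0.20 at D8.5 (edgeR adjusted p = 2.69e-29) and 5.63 ± 0.14 at D10 (edgeR adjusted p = 8.15e-31). Since the AGN and PM counts were low, ratios of summed counts are given with their 95% exact (Clopper-Pearson) counting intervals, which cover counting error only. CD1530 over AGN was 4.17 (2.51 to 7.27) at D6.25 from 83 and 19 counts, 188 (102 to 393) at D8.5 from 1336 and 10 counts, and 49.6 (38.1 to 65.8) at D10 from 3131 and 56 counts. The D10 ratio was smaller than that at D8.5 while the CD1530 level was higher, and the AGN level was higher too. Against the 4 counts of PM, CD1530 at D10 stood at a ratio of 851 (332 to 3126) and AGN at D10 at 17.2 (6.35 to 65.2).

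Rarb shares 1793 of its 5265 exon bases with Top2b, a topoisomerase gene on the opposite strand, and another 227 with the antisense gene Gm48162. Where reads are counted without strand, those from shared bases cannot be told apart. Top2b was at 222 to 234 CPM in CD1530 and 230 to 237 CPM in AGN at D10 (log2 fold change -0.03 ± 0.05, edgeR adjusted p = 0.687), and it differed between conditions at D7.5 alone (0.19 ± 0.05, edgeR adjusted p = 0.00775). In PM it was at 61.6 to 66.9 CPM, above the Rarb level of 0 to 0.144 CPM there.

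Rarg encodes the receptor that CD1530 targets (chr15:102234938-102257517, minus strand), and it was high from D6.75 in CD1530, later in AGN, and at overlapping levels in both at D10. In PM it was at 47.8, 45.0 and 48.8 CPM. In CD1530 it was at 49.0, 50.8 and 47.2 CPM at D6.25, 96.9, 95.4 and 90.2 CPM at D6.75 and 140.5 ± 4.49 CPM (SD, n = 3) at D7.5, the highest group mean. In AGN it was at 40.4, 37.4 and 43.8 CPM at D6.25, below every PM library, and at 49.0, 46.7 and 50.4 CPM at D6.75. The conditions thus parted within 0.25 days. By D10 the CD1530 libraries were at 129, 135 and 126 CPM and those of AGN at 138, 128 and 133 CPM, which overlapped.

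The log2 fold change of Rarg between conditions was 0.27 ± 0.05 at D6.25 (edgeR adjusted p = 0.00136), 0.95 ± 0.05 at D6.75 (1.42e-18) and 0.84 ± 0.05 at D7.5 (6.48e-18). It was down to 0.36 ± 0.05 at D8.5 (edgeR adjusted p = 4.50e-08), and at D10 to -0.03 ± 0.05 (0.653), or 0.0080 with library size only. In CD1530 the level at D8.5, 106, 112 and 111 CPM, was lower than at D7.5 and at D10 with no overlap.

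Rara, the most broadly expressed RAR gene (chr11:98927818-98974942, plus strand), climbed in both conditions with a lead in CD1530 in the middle of the series. It was at 49.3, 49.9 and 49.1 CPM in PM. In CD1530 it was at 97.2, 93.3 and 90.4 CPM at D7.5 and hardly further at D10, at 94.2, 96.5 and 98.7 CPM. In AGN it was at 75.2, 70.3 and 68.8 CPM at D7.5 and at 107, 98.8 and 104 CPM at D10. At D7.5 the groups were apart by a log2 fold change of 0.39 ± 0.04 (edgeR adjusted p = 6.51e-10), and at D8.5 by 0.17 ± 0.04 (0.00105).

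Rara was at the edge of the threshold at the other times. At D6.75 the log2 fold change was 0.12 ± 0.04 (edgeR adjusted p = 0.0412), a call that was lost in DESeq2 (adjusted p = 0.0573), in a fit of the compared groups only (0.249) and when any 1 library but CD1530 D6.75 replicate 1 was left out. At D10 it was -0.10 ± 0.04 (edgeR adjusted p = 0.0517), with all 3 AGN libraries above the 3 of CD1530, and it passed the threshold with DESeq2 (0.0213), with DESeq2 size factors (0.0206) and without CD1530 D6.75 replicate 1 in the fit (0.0337).

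Rxra was the member with the clearest excess in AGN (chr2:27676440-27762957, plus strand). RXRα is the main partner of the RARs in most tissues. It was at 41.7, 43.5 and 41.0 CPM in PM. In AGN it was at 70.4, 66.2 and 71.7 CPM at D6.75 and at 142, 131 and 133 CPM at D10. In CD1530 it was at 50.2, 54.2 and 51.0 CPM at D6.75 and at 84.4, 86.2 and 84.2 CPM at D10. The conditions did not overlap at any of the 5 times, and every group after PM lay above it.

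The log2 fold change of Rxra, CD1530 minus AGN, was -0.42 ± 0.05 at D6.75 (edgeR adjusted p = 2.21e-09) and -0.23 ± 0.05 at D7.5 (0.000130). Later it was -0.26 ± 0.05 at D8.5 (edgeR adjusted p = 1.07e-05) and -0.68 ± 0.04 at D10 (1.53e-16). At D6.25 it was -0.16 ± 0.05 (edgeR adjusted p = 0.0815), and this passed the threshold once CD1530 D6.75 replicate 1 was left out of the fit (0.0338). The mean level of CD1530 at D10, 84.9 CPM, was that of AGN at D8.5, 83.9 CPM, and these neighbours overlapped.

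Rxrb was called between the conditions only at D10 and Rxrg at no time, at very different levels and with much wider errors for Rxrg. Rxrb, a broadly expressed partner (chr17:34031812-34038399, plus strand), was at 54.3 to 57.0 CPM in PM, 86.7, 91.0 and 85.4 CPM in CD1530 at D10, and 97.8, 90.7 and 98.1 CPM in AGN at D10. The log2 fold change at D10 was -0.12 ± 0.05 (edgeR adjusted p = 0.0250), the libraries overlapped, and the call was lost with library size only (0.124) and without AGN replicate 1 (0.0968), AGN replicate 3 (0.106), CD1530 replicate 1 (0.0745) or CD1530 replicate 3 (0.101). Rxrg, which is known from muscle and brain (chr1:167598384-167639623, plus strand), had group means between 0.590 and 1.81 CPM, and its neighbours in the order of levels all overlapped. Its log2 fold changes between conditions ran from -0.62 ± 0.38 at D7.5 (edgeR adjusted p = 0.240) to 0.04 ± 0.32 at D8.5 (0.937), so a difference of this size was not detectable at this depth. Its highest group mean was AGN at D6.25, at 1.81 ± 0.358 CPM (SD, n = 3).

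Nrip1, the corepressor that acts with agonist-bound receptors (chr16:76287400-76373827, minus strand), rose in both conditions within 0.25 days and then parted. It was at 43.5, 36.5 and 40.1 CPM in PM. At D6.25 it was at 95.1, 99.5 and 106 CPM in CD1530 and at 88.8, 86.9 and 91.2 CPM in AGN. The groups did not overlap there, and the log2 fold change of 0.17 ± 0.11 did not pass the threshold (edgeR adjusted p = 0.584, and 0.00308 in a fit of the compared groups only). At D10 it was at 137, 126 and 130 CPM in CD1530 and at 56.7, 58.0 and 54.5 CPM in AGN. The AGN level had fallen from D6.25 by 0.66 ± 0.11 on the log2 scale (edgeR adjusted p = 1.15e-05) yet was still above PM by 0.49 ± 0.12 (0.000562).

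The log2 fold change of Nrip1 between conditions was 0.71 ± 0.11 at D7.5 (edgeR adjusted p = 1.26e-05), 0.68 ± 0.11 at D8.5 (1.34e-05) and 1.22 ± 0.11 at D10 (1.40e-09). At D6.75 the CD1530 libraries were at 88.8, 134 and 135 CPM and those of AGN at 103, 98.4 and 101 CPM. The low one is replicate 1, the library that stood apart along gene length. With it the log2 fold change was 0.24 ± 0.10 (edgeR adjusted p = 0.118), and without it 0.42 (1.37e-05).

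Ncor1, the scaffold of the corepressor complex (chr11:62316426-62458541, minus strand), passed the threshold in none of the 12 comparisons of the fit over all libraries. Its group means ran from 200.6 CPM in CD1530 at D10 to 227 CPM in CD1530 at D7.5, a ratio of 1.13, and its neighbours in the order of levels all overlapped. The largest log2 fold change between conditions was -0.12 ± 0.12 at D10 (edgeR adjusted p = 0.468). CD1530 D6.75 replicate 1 was at 139 CPM beside 236 and 237 CPM in the other libraries of its group. With that library the D6.75 difference was -0.10 (edgeR adjusted p = 0.654) and without it 0.12 (0.266). In fits of the compared groups only, Ncor1 passed at D8.5 with 0.09 (adjusted p = 0.0288) and at D10 with -0.10 (0.0182), in opposite directions. In the same fits CD1530 at D10 was below PM by -0.23 (adjusted p = 0.0050) and below D6.25 by -0.11 (0.00998). Its exons share 82 bases with Pigl and 1 with Ttc19, both on the opposite strand.

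**Figure D2:**
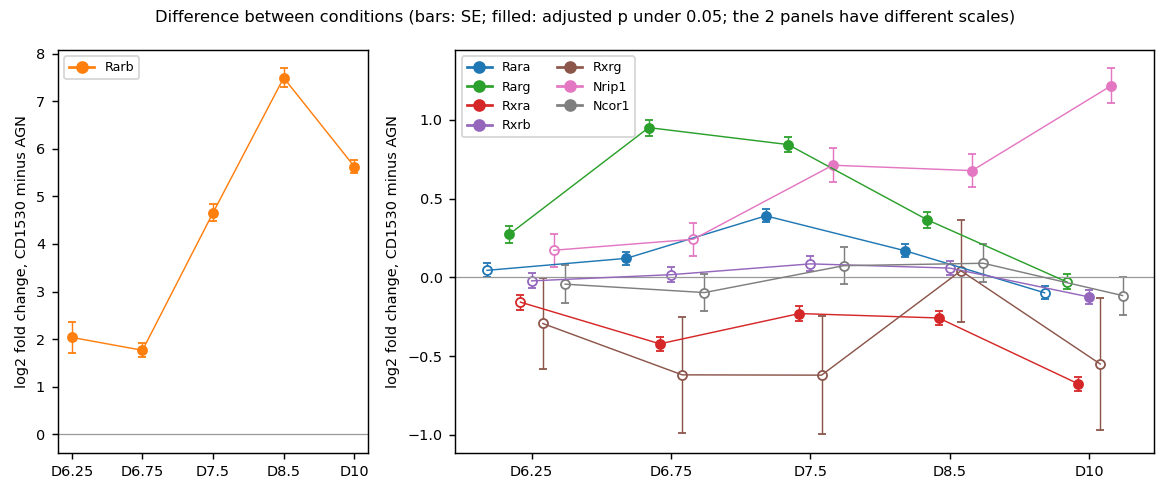
Log2 fold change of each member, CD1530 minus AGN (y axis), at the 5 times (x axis), Rarb on the left and the other 7 members on the right with another scale; bars are SE and filled points passed an edgeR adjusted p of 0.05. Rarb reaches 7.49 at D8.5, Rarg peaks at 0.95 at D6.75 and is back at zero at D10, and Nrip1 (1.22) and Rxra (-0.68) are farthest apart at D10.

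Whether the difference between conditions was the same at all 5 times was tested with an interaction of 4 degrees of freedom. It was called for 5 of the 8 members, beside 48.8% of all genes: Rarb (edgeR adjusted p = 7.12e-18), Rarg (1.34e-15), Rxra (3.21e-08), Rara (1.54e-07) and Nrip1 (1.96e-05). It was not called for Rxrb (0.0515), Rxrg (0.668) or Ncor1 (0.702). Rxrb lay at the threshold: it passed with DESeq2 size factors (edgeR adjusted p = 0.0422), without CD1530 D6.75 replicate 1 (0.0240) and, counting that one, in 12 single-library leave-out fits (lowest 0.0143, without AGN D7.5 replicate 3).

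From PM to D10 in CD1530, 6 of 8 members were called (83.2% of all genes), all of them higher (43.3% of all genes): beside Rarb these were Nrip1 by 1.71 ± 0.11 on the log2 scale, Rarg by 1.46 ± 0.05, Rxra by 1.01 ± 0.05, Rara by 0.96 ± 0.04 and Rxrb by 0.66 ± 0.05. From PM to D10 in AGN, 6 were called (82.0%), all of them higher (41.6%), with Rxra at 1.69 ± 0.05, Rarg at 1.49 ± 0.05, Rara at 1.06 ± 0.04, Rxrb at 0.79 ± 0.05 and Nrip1 at 0.49 ± 0.12. Both comparisons share the PM libraries, and most genes were called in each, so the count called is no result about the members. Ncor1 in CD1530 at D10 was lower than PM by -0.18 ± 0.12 (edgeR adjusted p = 0.175) and passed once CD1530 D6.75 replicate 1 was left out of the fit (0.00953).

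Part of this change came within the first 0.25 days. From PM to D6.25, 5 members were called in CD1530 (67.8% of all genes) and 6 in AGN (68.1%). Nrip1 rose by 1.32 ± 0.11 and 1.15 ± 0.11, Rara by 0.24 ± 0.04 and 0.20 ± 0.04, and Rxra by 0.17 ± 0.05 and 0.32 ± 0.05, CD1530 first. Rarg fell by 0.22 ± 0.05 on the log2 scale in AGN (edgeR adjusted p = 0.000489) and was 0.06 ± 0.05 from PM in CD1530 (0.352). Rxrg rose by 0.96 ± 0.34 in CD1530 (edgeR adjusted p = 0.0122) and by 1.25 ± 0.33 in AGN (0.00101), and the call in CD1530 was lost without CD1530 replicate 1 (0.119), PM replicate 2 (0.0638) or PM replicate 3 (0.0741). Rxrb in AGN differed from PM by 0.10 ± 0.05 (edgeR adjusted p = 0.0602), which passed with library size only (0.00607) and without CD1530 D6.75 replicate 1 in the fit (0.0446). Rarb rose in both, with count ratios over PM of 19.0 (7.15 to 71.4) in CD1530 and 4.56 (1.52 to 18.4) in AGN.

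From D6.25 to D10, 7 members were called in CD1530 (75.3% of all genes) and 7 in AGN (74.5%), Ncor1 being the exception in each. Rxrg was the only member called lower at D10 in both, with log2 fold changes of -1.31 ± 0.36 in CD1530 (edgeR adjusted p = 0.00141) and -1.05 ± 0.34 in AGN (0.00513). Nrip1 rose by 0.39 ± 0.10 in CD1530 (edgeR adjusted p = 0.00177), which was 0.22 with library size only (0.0530), and fell in AGN.

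Per kb of exon, the order of the members changed along the series. In PM it was Ncor1 with 17.7 CPM per kb, Rxrb with 13.9, Rara with 11.3, Rarg with 11.1, Rxra with 7.71, Nrip1 with 3.49, Rxrg with 0.326 and Rarb with 0.0121. In CD1530 at D10 Rarg led with 30.5 CPM per kb, and Rarb had reached 10.7 beside 11.4 for Nrip1. In AGN at D10 Rarg led with 31.1 CPM per kb, Rxra was at 24.8, Nrip1 at 4.92 and Rarb at 0.214.

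Within the RAR family, Rara and Rarg made up nearly all of the length-scaled level in PM, with 50.5% ± 1.27 and 49.4% ± 1.27 (SD, n = 3), and Rarb 0.0539%. In CD1530 the Rarb share was 3.64% at D6.75, 9.12% at D8.5 and 16.9% ± 1.06 at D10. In AGN at D10 it was 0.392% ± 0.179. The Rara share at D10 was 34.9% ± 0.557 in CD1530 and 43.0% ± 0.217 in AGN, and that of Rarg 48.2% ± 1.57 and 56.6% ± 0.268. The summed RAR level was 22.4 CPM per kb in PM, 57.5 in CD1530 and 34.9 in AGN at D7.5, and 63.3 ± 0.766 in CD1530 and 55.0 ± 1.98 in AGN at D10. In an alternative chosen after seeing the data, exon bases shared with neighbours in the count table were left out of the length. For Rarb these were the 1793 shared with Top2b and not the 227 shared with Gm48162, and the counts were left unchanged. The Rarb share at D10 was then 23.5% in CD1530 and 0.593% in AGN.

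Within the RXR family, Rxrb was the larger part in PM with 63.4% ± 0.944 and Rxra was at 35.1% ± 1.23. At D10 the Rxra share was 41.1% ± 0.445 in CD1530 and 50.4% ± 1.07 in AGN, where it passed that of Rxrb (48.8%). Rxrg was at or under 3.09% in every group mean. The summed RXR level was 22.0 CPM per kb in PM, and at D10 it was 37.9 ± 0.908 in CD1530 and 49.3 ± 1.96 in AGN. The sums of the RARs and of the RXRs thus differed in opposite directions at D10, and neither overlapped between conditions. Among the RAR genes only Rarb had the higher mean in CD1530 there, at 10.7 CPM per kb beside 0.214 in AGN. Rara was at 22.1 CPM per kb in CD1530 and 23.6 in AGN, and Rarg at 30.5 and 31.1.

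The share of each receptor was compared between conditions at each time in 30 exact two-sided permutation tests. With 3 against 3 libraries none can go below an exact p of 0.10 before adjustment, so no share could pass the threshold. For Rarb the shares did not overlap at any time, with differences from 0.702 percentage points at D6.25 to 16.5 at D10.

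**Figure D3:**
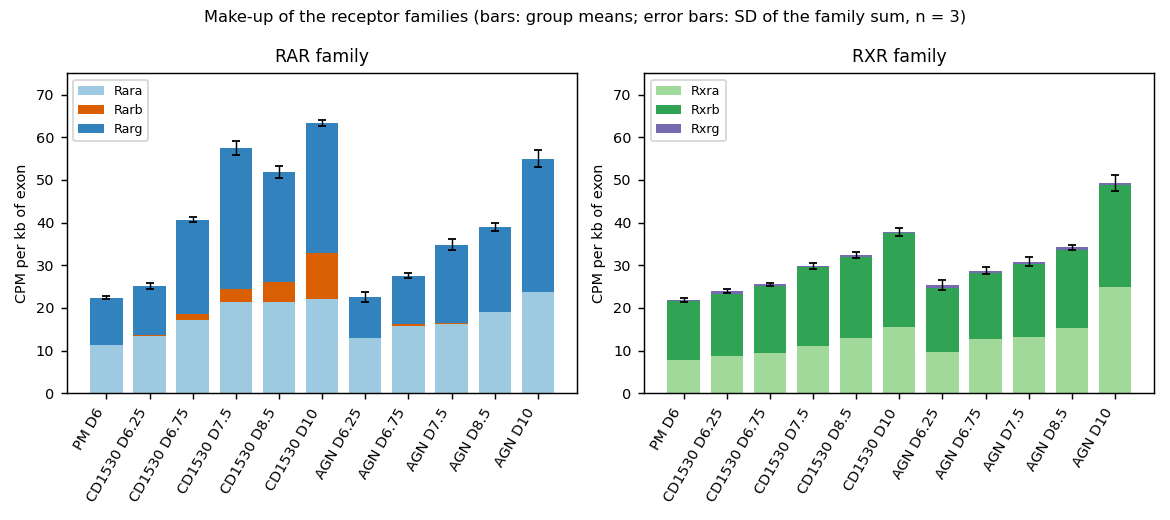
Summed level of the RAR genes (left) and RXR genes (right) in CPM per kb of exon (y axis) in the 11 groups (x axis); coloured segments are group means of each gene and error bars the SD of the sum (n = 3). The Rarb segment widens in CD1530 to 10.7 CPM per kb at D10, and the RXR sum reaches 49.3 in AGN against 37.9 in CD1530.

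The genes whose 11 group means of log2(CPM + 1) followed each member best were taken from 12072 genes that averaged 50 counts per library or more. The groups share their PM start and their times, so these values describe likeness only. For Rarb they were Dhrs3 (Pearson r = 0.992), a retinaldehyde reductase that limits retinoic acid synthesis, Camk2n1 (0.985), an inhibitor of CaM kinase II, and Wdr91 (0.976). Dhrs3 was at 236 CPM in CD1530 and 7.70 CPM in AGN at D10. For Nrip1 they were Frmd4a (0.968), Cyp26a1 (0.965), which degrades retinoic acid, and Cbfa2t3 (0.948), a transcriptional corepressor. For Rxra they were Chst12 (0.985), Thra (0.981), the thyroid hormone receptor α gene, and Cspg4 (0.980). For Rarg they were Fblim1 (0.958), Ensa (0.948) and Zmym3 (0.946). For Rara they were Hoxaas2 (0.990), Otub2 (0.985) and Lasp1 (0.984), and for Rxrb Dcaf6 (0.993), Fbln1 (0.990) and Rbl2 (0.989). The correlations were lower for Rxrg and Ncor1, with Crebzf (0.929), Hnrnpa0 (0.917) and Slc39a10 (0.877) for Rxrg and Zfp81 (0.864), Cep295 (0.851) and Atr (0.836) for Ncor1. Some of these places depended on the measure: by Spearman correlation Otub2 ranked 204 for Rara, Wdr91 191 for Rarb, Cbfa2t3 162 for Nrip1, Rbl2 84 for Rxrb, Ensa 56 for Rarg and Chst12 46 for Rxra.

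The rest of the pathway is given from lists drawn up with earlier results of these data known, for D10 and CD1530 against AGN. Of all genes, 22.7% were called higher in CD1530 at D10 and 24.0% lower. Of 14 retinoid targets, 12 were higher in CD1530, 0 lower and 2 not called, with a median log2 fold change of 3.96. At D6.25, where 1.92% of all genes were called, 8 were higher and 0 lower, with a median of 0.61. The 4 with the largest difference at D10 were Stra8, Hoxb1, Cdx1 and Cyp26a1. Stra8, a gene of germ cells entering meiosis, was at 201 ± 1.07 CPM (SD, n = 3) in CD1530 and had 8 counts in AGN, a ratio of 1240 (629 to 2873). Hoxb1 had 1374 and 2 counts (ratio 609, 168 to 5035), Cdx1 490 and 4 counts (109, 42.2 to 400.2), both being axial patterning genes. Cyp26a1 was at 163, 175 and 170 CPM in CD1530 and at 2.75, 2.35 and 2.26 CPM in AGN.

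Genes that supply or carry retinoids split in direction, with 3 of 7 in the table higher in CD1530, 2 lower and 2 not called (median 0.25). Beside these counts stand 22.7% of all genes called higher and 24.0% called lower. Aldh1a3 was higher in CD1530 by 1.11 ± 0.04 and Aldh1a2 lower by -1.17 ± 0.11. Both encode enzymes that make retinoic acid. Crabp2, a carrier of retinoic acid to the receptors that is also among the targets, was higher by 0.76 ± 0.07, and Rdh10, which makes retinaldehyde, by 0.25 ± 0.06.

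The cofactor lists had medians near that of all genes. Of 11 other genes of corepressor complexes, 0 were higher in CD1530, 4 lower and 7 not called (median -0.05): Ctbp2 by -0.57 ± 0.04, Tbl1xr1 by -0.30 ± 0.06, Gps2 by -0.17 ± 0.07 and Sin3a by -0.14 ± 0.05. TBL1XR1 and GPS2 are core subunits of the NCOR complex. Of 9 coactivators, 2 were higher, 1 lower and 6 not called (median 0.07): Ncoa3 by 0.73 ± 0.09, Smarca4 by 0.11 ± 0.04 and Carm1 by -0.30 ± 0.05. Of 8 other partners of the RXRs in the table, 0 were higher, 2 lower and 6 not called (median -0.03). These were Thra, at 71.8 to 76.5 CPM in CD1530 and 147 to 155 CPM in AGN (-1.01 ± 0.05, edgeR adjusted p = 6.30e-21), and Nr1h2, an oxysterol receptor gene (-0.15 ± 0.05, 0.00899). The median over all genes was -0.02. With 22.7% of all genes called higher in CD1530 and 24.0% lower, the counts of these cofactor and partner lists are given as values only.

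**Figure D4:**
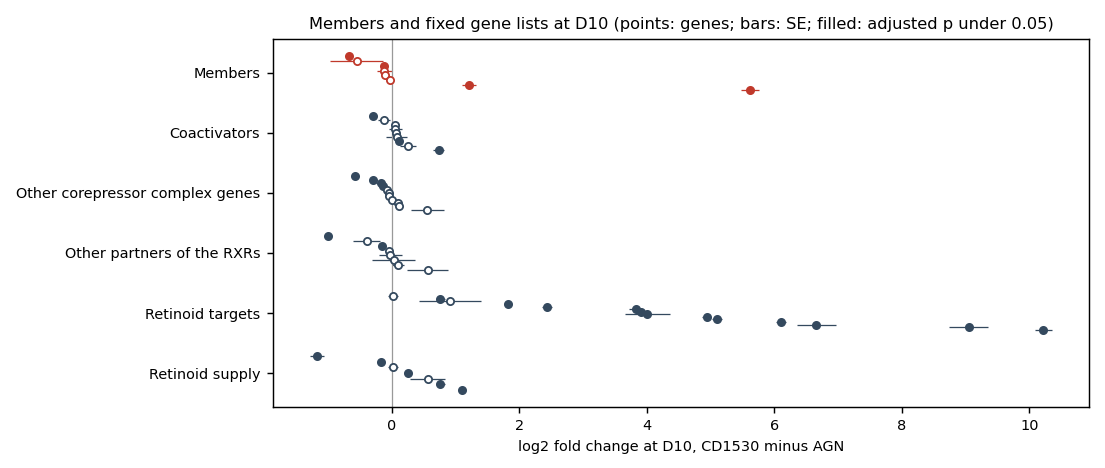
Log2 fold change at D10, CD1530 minus AGN (x axis), of the members and of the 5 gene lists (rows, each point 1 gene, spread vertically in order of its value); bars are SE and filled points passed an edgeR adjusted p of 0.05. The retinoid targets reach 10.2 with a median of 3.96, while the medians of the coactivators (0.07), corepressor complexes (-0.05) and RXR partners (-0.03) lie near zero.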

How the data were processed

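Total RNA of 33 mouse libraries was sequenced as paired ends. The authors aligned reads with STAR to GRCm38 and counted them per gene with featureCounts; the deposited values are raw counts of reads per gene. The annotation release, strand setting and handling of reads that fit several genes are not given in the sources used here. filterByExpr removed 0 of 17120 genes. Exon lengths and positions came from GENCODE M21 (17117 identifiers matched).

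Groups were taken from the labels, and 11 groups of 3 were fitted together in edgeR 4.0.16 (R 4.3.3) with TMM scaling and the robust quasi-likelihood test, with Benjamini-Hochberg adjustment over all genes and a threshold of 0.05. Fold changes used a prior count of 0.125. The biological coefficient of variation was 4.68%. Totals of 17116084 to 38120841 counts make the members' CPM precise, except for Rarb in PM and AGN and for Rxrg. No 2 replicates were identical (lowest chi-square per gene 1.59). The methods call them biological replicates. A p-value of the main fit weighs a difference against the spread between replicates and speaks for these samples only. That spread was estimated for each gene over all 11 groups, with information shared between genes. Same-numbered libraries did not deviate together (correlations of -0.138 to 0.137), so the numbers were not used as pairs. The fit was also run on counts simulated from its own group means, with set differences at D10 only. The simulation held no library that stood apart along gene length, so it cannot show how such a library moves calls.

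Shares within a family were taken per library from CPM per kb of exon and compared by exact permutation tests. Named genes were all 8 members, for each the 3 genes with the highest Pearson correlation (log2(CPM + 1), predicted genes left out) and up to 4 called genes a list with the largest difference at D10. The members and lists were chosen with earlier results of these data known. One listed gene is not reported here. Alternatives were 2 other scalings, 2 filters, a fit that is not robust, DESeq2 1.42.0, the compared groups only, the replicate block, leaving out each library, no length correction and Spearman correlation. Added after seeing the data were the family shares without shared exon bases and a fit without CD1530 D6.75 replicate 1. Promoter windows came from RefSeq (GRCm38.p6).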

Additional observations from a re-analysis of the deposited data

Results flagged for a closer look

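The interaction test called 5 of the 8 members, beside 48.8% of all genes. The contrast of conditions of these 5 members changed over the 5 times. For Rarb (edgeR adjusted p = 7.12e-18) the log2 fold change was largest at D8.5. It was smaller at D6.25 (2.04 ± 0.33) and D6.75 (1.77 ± 0.15) than later, and these 2 values lay within their errors. AGN was at its own highest level at D6.75. For Rarg (1.34e-15) it was largest at D6.75 and near zero at D10. For Rxra (3.21e-08) the excess in AGN was largest at D10. For Rara (1.54e-07) it was positive at D7.5 (0.39) and -0.10 at D10. For Nrip1 (1.96e-05) it was largest at D10 (1.22). Groups of 3 libraries were not tested for single outlying samples.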

How the results depend on the processing

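The 96 member results were recomputed under 8 other settings, 1 more chosen after seeing the data, and with libraries left out in turn, giving 1612 values: 1548 kept direction and side of the threshold, 16 lost a call, 36 gained one and 12 changed sign, all of these among differences that were not called. The setting with no filter repeats the main fit, because filterByExpr removed 0 genes, so its 96 unchanged values were fixed in advance. With the replicate block the 96 results kept direction and call. The count of genes called at D6.25 between conditions, 329, was 804 with the compared groups only, 673 without CD1530 D6.75 replicate 1 in the fit, and 196 to 276 when a library of the compared groups was left out. At D6.75 it was 1236 with the compared groups only, against 3076. Sign changed for Rarg at D10 with library size only (0.0080), for Rxrg at D8.5 with DESeq2 (-0.0058) and with a library left out (-0.26 to 0.35), for Ncor1 in AGN at D6.25 against PM with library size only (0.030) and with a library left out (-0.12 to 0.023), and with a library left out for Rxrb at D6.25 (-0.051 to 0.026), Ncor1 at D6.75 (-0.22 to 0.12), and Rxrg at D10 against PM in CD1530 (-0.57 to 0.10) and in AGN (-0.16 to 0.65). The causes were not tested. With the compared groups only, the filter on low counts removed Rarb from the 3 comparisons of AGN with PM and over time, and DESeq2 gave no adjusted p for Rxrg at D6.25. Of the 30 differences in family share, 6 moved by more than the spread between replicates without a correction for length and 9 without shared exon bases, and 0 changed sign. Depth limits Rarb in PM and AGN and Rxrg in every group.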

Other observations

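The DR5 search of all promoter windows found 31 genes, of which 7 were in the count table. At D10, 3 of these 7 were higher in CD1530 than in AGN, namely Rarb, Cyp26a1 and Prokr2 (1.30 CPM in AGN and 5.76 CPM in CD1530), 2 were lower, namely Blvrb and Hbb-y, and 2 were not called. Beside the 46.6% of all genes called at D10, these counts are given as values only.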
